A study of Homo sapiens with 8 samples.

Results

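Olfactory receptor genes encode the odorant receptors of the nose, a family of G protein-coupled receptors that forms large tandem arrays with many pseudogenes. In the nose a sensory neuron uses a single receptor gene and keeps the others silent, and in mouse olfactory neurons the silent arrays carry H3K9me3, the histone mark of constitutive heterochromatin. Outside the nose the arrays are mostly silent. 11 such arrays were examined here in PC9 cells. They are defined by hg19 coordinates and not by a measured value, but were chosen with earlier results of these data known. They add up to 11.5 Mb and were divided into 1150 tiles of 10 kb, out of 309555 full tiles of that size on chromosomes 1 to 22, X and Y.

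PC9 is an established human lung adenocarcinoma line whose growth depends on a mutant EGFR, the receptor that erlotinib inhibits. H3K9me3 was profiled by chromatin immunoprecipitation and sequencing in 3 states of this line. DTP + TSA cells had survived 1 uM erlotinib for 8 days and then spent 5 hours in 50 nM trichostatin A (TSA), which inhibits histone deacetylases. DTP cells (drug-tolerant persisters) had survived the same 8 days in 1 uM erlotinib, and parental cells were untreated. DTP cells are survivors of a lethal exposure, so a change within cells and a selection of cells cannot be told apart. A list of enriched intervals was deposited for 1 H3K9me3 library of each state, and the 5 other samples of the series (H3K4me3 and input) were not analysed here. With 1 library per state the differences could not be checked in replicates, so p-values are not given. The lists hold 53000 intervals in DTP + TSA, 47866 in DTP and 23842 in parental cells, and since they give no totals of reads the depth behind them is unknown. A share of cells with the mark and an amount of mark per cell cannot be told apart in such lists.

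The arrays take their names here from the hg19 bands they lie in. The 1q44 cluster is chr1:247600001-248900000, 6p22.1 is chr6:29000001-29600000, 7q35 is chr7:143100001-144100000 and 9q33.2 is chr9:125200001-125600000. Chromosome 11 holds 4 clusters, 11p15.4 at chr11:4300001-6300000, 11q11-q12.1 at chr11:55000001-56900000, 11q12.1 at chr11:57700001-59300000 and 11q24 at chr11:123600001-124500000. The remaining ones are 12q13.2 at chr12:55500001-56100000, 14q11.2 at chr14:20100001-20800000 and 17p13 at chr17:2900001-3400000. All coordinates of clusters, tiles and intervals are on hg19 and count from 1.

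No annotation of hg19 genes was used here, so the genes of each array were read from the order of neighbours in RefSeq on GRCh38, where a run of olfactory receptor genes ended at a gap of over 600 kb between gene starts. The runs that hold the 11 arrays contain 531 of the 872 genes with olfactory receptor names, 289 of them coding and 242 pseudogenes, and a run may reach past the hg19 borders above. The arrays also hold other genes, such as beta-globin, TRIM and TAS2R genes. No tile or interval was placed on a receptor gene, so coverage is that of the whole windows. The 11q11-q12.1 run is the largest with 117 genes, 56 of them of receptor family 5 and 33 of family 4. The 11p15.4 run has 113, of which 49 belong to family 52 and 44 to family 51, the class of receptors most like those of fish. The 1q44 run has 56 genes, 43 of them of family 2. The 17p13 run is small, with 18 genes, 13 of them of family 1, and the 9q33.2 run has 15, of which 14 belong to family 1.

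The annotated start regions of these genes have few CpG dinucleotides. RefSeq promoters (GRCh38.p14, 250 bases before to 50 after the annotated start) were found for 244 of the 531 genes. Annotated starts of many olfactory receptor genes may be coding starts, so these windows may not be the true promoters. Their median GC content was 37.3%, with the lower and upper 25% limits at 33.3% and 42%, against a median of 58.7% over all 35116 promoters of the table. The median promoter of the runs had 1 CpG, against 14 over all promoters, and 46 of 244 (18.9%) had none, against 3.96% of all. The motif TAATTA, which reads the same on both strands and is the core of many homeodomain sites, was present in 52 (21.3%) of them and in 4.84% of all promoters. The motif CCCNNGGG, also its own reverse complement and related to the sites of EBF factors of the olfactory lineage, was present in 17 (6.97%) and in 19.1% of all. These are counts of letters. TAATTA holds only A and T, and the fixed letters of CCCNNGGG are only C and G. The shares were not adjusted for the lower GC content of the runs, so they show neither enrichment nor depletion of sites. No interval could be placed on a promoter, because the promoters are on another build than the intervals.

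The following 3 promoters come from the arrays with the largest gain of H3K9me3 in points in DTP over parental cells (17p13 and 9q33.2) and from the one with the highest ratio (11p15.4), and give the letters behind these values. Each belongs to the coding gene nearest the median GC content of its run, runs 5′ to 3′ on the strand of the gene, and has every CpG in capitals. In OR1R1 and OR1J1 the part after the annotated start begins with ATG, so some of their CpG may be coding sequence. On GRCh38.p14 they lie at chr17:3385680-3385979 (+ strand), chr9:122477877-122478176 (- strand) and chr11:5138307-5138606 (- strand), coordinates that cannot be set against the hg19 ones. The OR1R1 promoter, at the median GC content of its run but above the upper 25% limit of all runs, has a GC content of 45.7% and 10 CpG, more than the median of 3 in its run, the OR1J1 promoter 37.7% and 3 CpG, and the OR52A5 promoter 40% and 2 CpG.
OR1R1: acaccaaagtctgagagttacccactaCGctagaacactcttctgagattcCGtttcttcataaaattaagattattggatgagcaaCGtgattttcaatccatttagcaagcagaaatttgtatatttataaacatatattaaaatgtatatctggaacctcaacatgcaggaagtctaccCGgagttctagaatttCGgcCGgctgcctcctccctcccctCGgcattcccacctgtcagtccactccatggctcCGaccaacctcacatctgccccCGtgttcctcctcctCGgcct
OR1J1: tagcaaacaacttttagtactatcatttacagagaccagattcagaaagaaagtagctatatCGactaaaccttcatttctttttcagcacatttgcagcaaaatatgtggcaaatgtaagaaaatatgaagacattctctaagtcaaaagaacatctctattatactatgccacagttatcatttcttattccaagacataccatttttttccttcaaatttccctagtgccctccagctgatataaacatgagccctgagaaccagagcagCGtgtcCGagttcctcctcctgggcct
OR52A5: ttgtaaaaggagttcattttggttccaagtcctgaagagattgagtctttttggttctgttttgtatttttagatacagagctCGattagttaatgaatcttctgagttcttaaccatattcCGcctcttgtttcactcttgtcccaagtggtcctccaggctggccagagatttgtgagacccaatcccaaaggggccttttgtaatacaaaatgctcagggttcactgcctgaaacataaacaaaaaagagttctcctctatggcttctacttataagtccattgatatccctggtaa

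DTP were first compared with parental cells. The olfactory receptor arrays were sparsely marked in parental cells and more heavily marked in DTP, in every one of the 11 arrays. In 11q11-q12.1 the higher value of DTP rested on a single interval of 40.2 kb at its border. Over all arrays, intervals covered 5.67% of the length in DTP (652.4 kb), against 2.32% in parental cells (266.8 kb), a ratio of 2.45. Over all of hg19 the covered share was 5.32% in DTP, against 4.05% in parental cells, a ratio of 1.32. The arrays were thus below the whole-genome share in parental cells and slightly above it in DTP, where they were below it, at 5.04%, without 17p13. All 11 were higher in DTP, where 80.1% of the 1-Mb windows that hold any interval were also higher, so the shared direction was also that of most of the genome. Taking from each list only as many of the strongest intervals as the parental list holds (23842), the ratio of DTP over parental was 1.15 in the arrays and 0.708 over hg19, 9 of 11 arrays were higher in DTP, and the arrays were below the whole-genome share in DTP, at 2.66% against 2.87%. Without the 4 arrays of chromosome 11 the ratio was 4.43.

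The size of the difference varied widely between arrays. The 17p13 cluster had the highest coverage in DTP, at 19.6% in DTP, against 3.52% in parental cells. It was followed by 9q33.2, at 14.55% in DTP and 3.60% in parental cells, and by 12q13.2, at 9.07% in DTP and 1.30% in parental cells. These are gains of 16.1, 10.95 and 7.77 percentage points, and these are 3 of the 4 smallest arrays. The ratio was highest in 11p15.4, the array of the fish-like receptors, which was nearly free of intervals in parental cells, at 3.75% covered in DTP and 0.330% in parental cells, a ratio of 11.4. In 11q24 coverage was 3.33% in DTP and 0.378% in parental cells, and in 14q11.2 it was 4.83% in DTP and 1.14% in parental cells. The 6p22.1 cluster held 10 intervals over 25.2 kb in DTP (4.20%) and is listed with none in parental cells, so no ratio is given.

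The other 4 arrays gained less than 2 points. In 7q35 coverage was 3.62% in DTP and 1.82% in parental cells, and in 1q44 it was 1.91% in DTP and 0.662% in parental cells. The neighbouring chromosome 11 arrays near the centromere were already marked in parental cells, with 6.29% in DTP and 5.25% in parental cells in 11q11-q12.1, and 6.08% in DTP and 5.15% in parental cells in 11q12.1. The gain of 11q11-q12.1 came from the side next to the centromere. The array was covered over 119.6 kb in DTP and 99.8 kb in parental cells. A single DTP interval of 40.2 kb, which begins outside the array, gave 28.0 kb of the DTP length, so the gain rested on it. Its first 0.7 Mb, in the centromeric band 11q11, was covered to 6.66% in DTP and 1.74% in parental cells, while its last 1.2 Mb, in 11q12.1, was covered to 6.08% in DTP and 7.30% in parental cells.

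**Figure D1:**
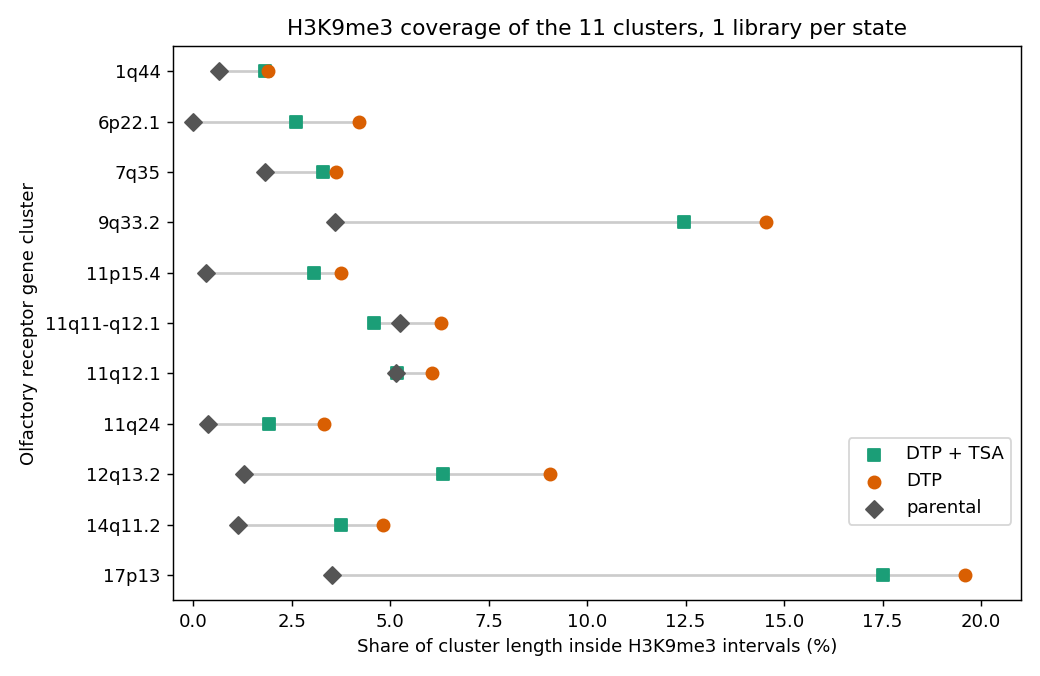
Share of each olfactory receptor gene cluster (rows) inside H3K9me3 intervals, in percent of its length, with 1 point per library: DTP + TSA (squares), DTP (circles) and parental cells (diamonds). The DTP point lies right of the parental point and of the DTP + TSA point in all 11 clusters, and 17p13 spans the widest range, with 17.5% in DTP + TSA, 19.6% in DTP and 3.52% in parental cells.

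More intervals, rather than longer ones, made up the difference. The arrays held 229 intervals in DTP and 71 in parental cells, and every array had more in DTP. These are 0.478% of the DTP list and 0.298% of the parental list. The median length was 2200 bp in DTP and 3200 bp in parental cells, against 2400 bp and 3800 bp for the whole lists of DTP and parental cells. In DTP 45.4% of the intervals of the arrays were at most 2 kb long, against 38.5% of the whole DTP list, and 11.8% were over 5 kb long, against 19% of the whole list. The lists as a whole differ in number and length in the same direction, and the part of sequencing depth in this was not tested.

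In tiles of 10 kb the mark was scattered. An interval was present in 261 of the 1150 tiles in DTP, or 22.7% (exact Clopper-Pearson 95% interval 20.3 to 25.2, counting error only), and in 86 in parental cells, or 7.48% (6.02 to 9.15). Over all tiles of hg19 the shares were 18.1% in DTP and 10.5% in parental cells. A tile was called higher or lower when its covered share differed by at least 20 percentage points, which is 2 kb. In DTP against parental cells 106 tiles (9.22%) were higher, where 6.67% of all tiles were, and 25 tiles (2.17%) were lower, where 3.72% of all tiles were. Of the 25 lower tiles, 11 lay in 11q12.1 and 8 in 11q11-q12.1, while 6p22.1, 9q33.2, 11p15.4, 11q24, 12q13.2 and 17p13 had 0 lower tiles. In 17p13, 17 of its 50 tiles were higher. With equal numbers of intervals 3.04% of the tiles were higher in DTP, where 2.85% of all tiles were, and 3.04% were lower, where 5.04% of all tiles were, so that higher tiles no longer outnumbered lower ones.

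**Figure D2:**
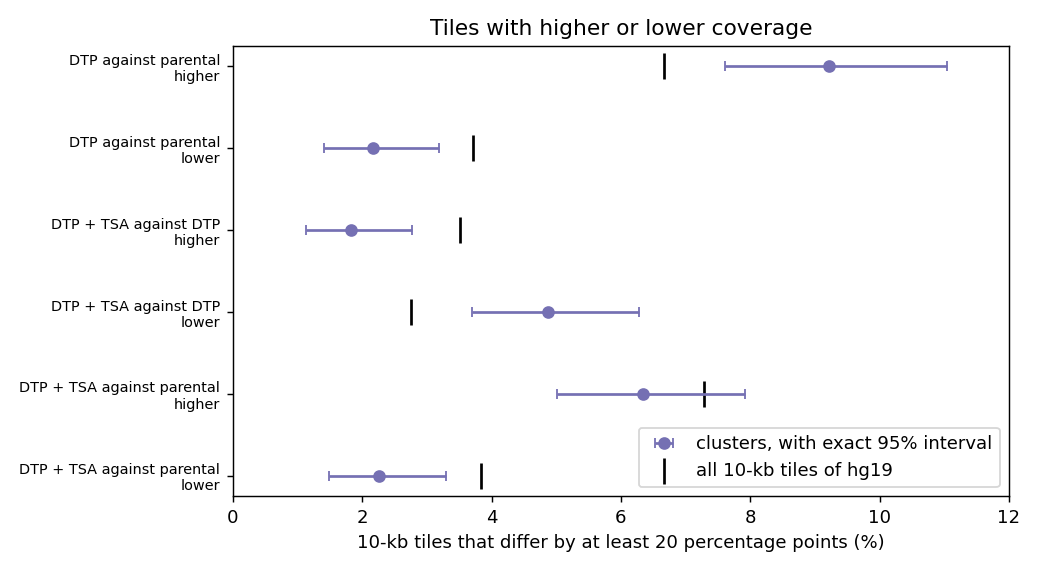
Percent of the 1150 olfactory receptor tiles of 10 kb that were higher or lower by at least 20 percentage points in each comparison (points, with exact 95% intervals that cover counting error only), beside the percent over all tiles of hg19 (black bars). In DTP against parental cells 9.22% of the tiles were higher and 2.17% lower, where 6.67% and 3.72% of all tiles were, and in DTP + TSA against DTP the lower tiles lay above the share of all tiles and the higher ones below it.

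The 5 tiles with the largest gain in DTP were without any interval in parental cells. The first, chr11:55000001-55010000 at the centromeric border of 11q11-q12.1, was covered to 100% in DTP and 0% in parental cells. It lies in an interval of 40.2 kb, chr11:54987801-55028000, the longest DTP interval touching an array, which begins outside the array. The next were chr9:125350001-125360000 in 9q33.2, at 76% in DTP, and 3 tiles at 74% in DTP, namely chr12:55990001-56000000 in 12q13.2 and the adjoining chr17:3220001-3230000 and chr17:3230001-3240000 in 17p13. The 17p13 pair is spanned by an interval of 14.8 kb, chr17:3222601-3237400, and the longest DTP interval of 9q33.2 was chr9:125525401-125536400 (11 kb). Parental intervals covered 4.6 kb of the first of these 3 long intervals and 0 kb of the others.

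The 5 tiles with the largest loss all lay in the 11q11-q12.1 and 11q12.1 clusters. In chr11:55260001-55270000 coverage was 0% in DTP and 76% in parental cells, and in chr11:56690001-56700000 it was 6% in DTP and 78% in parental cells. In 11q12.1 the tile chr11:58890001-58900000 was at 22% in DTP and 78% in parental cells, chr11:58940001-58950000 at 0% in DTP and 56% in parental cells, and chr11:58530001-58540000 at 0% in DTP and 52% in parental cells. Of the 5 longest parental intervals 4 also lay there. The other touched 11q24, with only 1.4 kb of its 8.6 kb inside the array. The longest was chr11:56760001-56775000 (15.0 kb), of which 6.4 kb was covered in DTP.

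Long stretches of the arrays were free of intervals in all libraries. Of the 1150 tiles, 819 (71.2%) had no interval in any library and 58 (5.04%) had one in all 3. In parental cells an unbroken stretch of 1635.6 kb was free in 11p15.4, or 81.8% of that array, and one of 1233.6 kb in 1q44, or 94.9%. In DTP the longest free stretch was 522.8 kb in 11p15.4, at chr11:4642601-5165400, and 325.6 kb in 1q44. The 11p15.4 stretch was free in all 3 libraries. Coverage was also uneven along the arrays: in the last 475 kb of 11q11-q12.1 it was 12.7% in DTP and 16.4% in parental cells, and in the 475 kb before that 2.40% in DTP and 1.43% in parental cells. Over all arrays the outer 20% at each end was covered to 7.24% in DTP and 3.30% in parental cells, and the part between to 4.63% in DTP and 1.67% in parental cells. In parental cells these outer parts held 151.8 kb. The last 475 kb of 11q11-q12.1, which takes in 1 of its outer parts, held 78.0 kb. The parental difference thus drew heavily on this array, and whether it holds in the others was not tested.

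**Figure D3:**
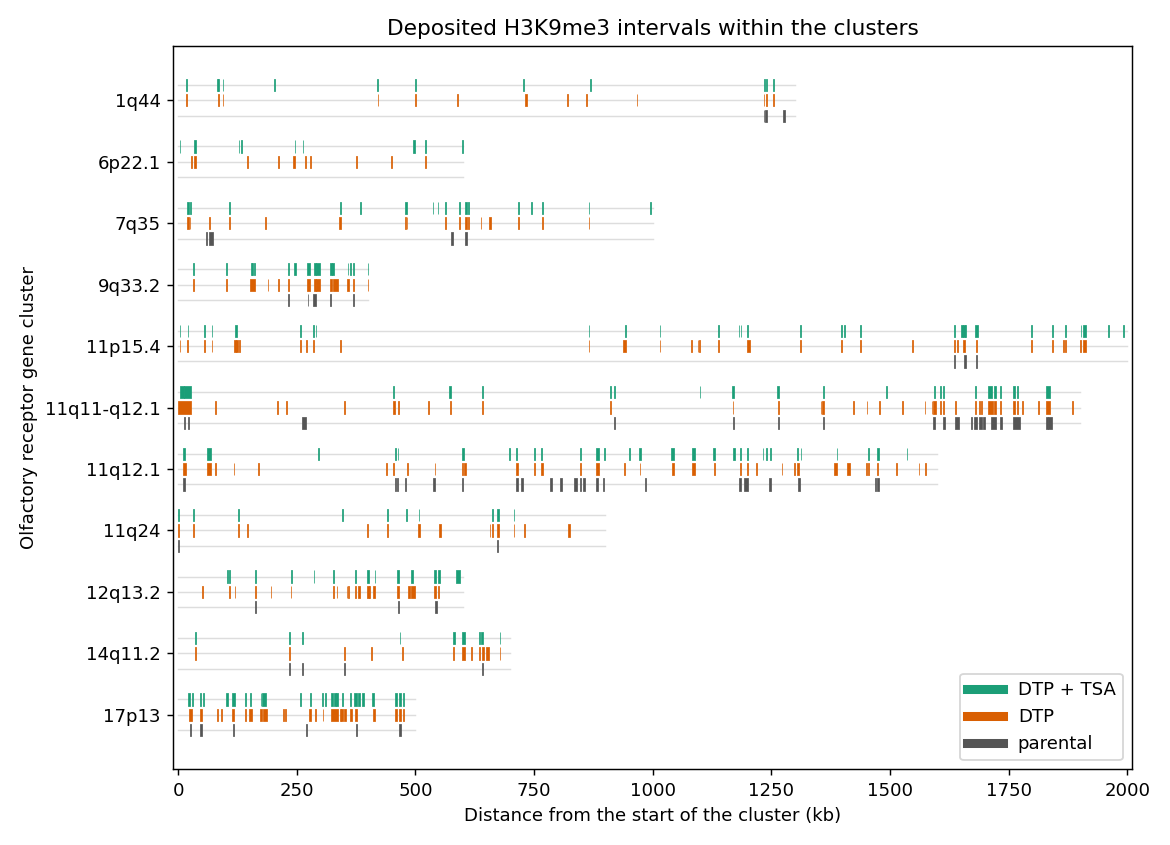
Deposited H3K9me3 intervals within the 11 clusters, drawn to scale by their distance from the start of the cluster in kb, with a row each for DTP + TSA (top), DTP (middle) and parental cells (bottom). The parental rows hold at most 6 intervals in each cluster other than 11q11-q12.1 and 11q12.1, and DTP intervals are spread along all 11 clusters.

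By count, most parental intervals of the arrays were touched by a DTP interval, and most DTP intervals had no parental counterpart. An overlap of at least 1 bp counted as shared, a limit that longer intervals meet more easily. A parental counterpart was found for 51 of the 229 DTP intervals (22.3%, 17.1 to 28.2), against 34.3% (33.8 to 34.7) of the DTP intervals elsewhere. A DTP counterpart was found for 50 of the 71 parental intervals (70.4%, 58.4 to 80.7), against 64.1% (63.5 to 64.7) of parental intervals elsewhere. The DTP intervals of the arrays that were shared with parental cells were 3200 bp long in the median, and their median Avg Val, the authors' mean signal within an interval, was 13.17. Those absent from parental cells had 2000 bp and 9.59.

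The signal of the intervals was ordinary for each list. The median Avg Val of the arrays was 9.84 in DTP, where the median of the whole list was 10.3, and 8.67 in parental cells, where it was 8.22. Values are not compared between libraries, since their scaling is unknown. Of the DTP intervals of the arrays 17 (7.42%) were in the strongest 10% of their list, and of the parental ones 3 (4.23%). The strongest lay in 17p13. The interval chr17:3014001-3017800 had an Avg Val of 58.5 in DTP, rank 326 of its list, and the parental interval at the same place, chr17:3014801-3017800, had 20.5, rank 1213, and was also the strongest of the arrays in parental cells. The second in DTP was chr17:3366401-3370200, at 49.5 and rank 468.

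DTP + TSA cells were next compared with DTP. The arrays were less covered in DTP + TSA than in DTP, in all 11 arrays, while the genome as a whole was more covered in the lists as deposited. Coverage of the arrays was 4.54% in DTP + TSA (522.6 kb), against 5.67% in DTP, a ratio of 0.801. Over all of hg19 it was 5.79% in DTP + TSA, against 5.32% in DTP, a ratio of 1.09. With equal numbers of intervals the genome was also less covered in DTP + TSA, with a ratio of 0.964, against 0.761 in the arrays. The direction by itself was also common elsewhere, since 61.4% of the 1-Mb windows with any interval were lower in DTP + TSA. Both comparisons use the same DTP library, so they are not independent of each other.

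The largest differences in points were in 12q13.2, at 6.33% in DTP + TSA and 9.07% in DTP, in 9q33.2, at 12.45% in DTP + TSA and 14.55% in DTP, and in 17p13, at 17.5% in DTP + TSA and 19.6% in DTP. The lowest ratios were in 11q24, at 1.93% in DTP + TSA and 3.33% in DTP, a ratio of 0.580, and in 6p22.1, at 2.60% in DTP + TSA and 4.20% in DTP, a ratio of 0.619. The ratio was 0.731 in 11q11-q12.1, 0.775 in 14q11.2, 0.819 in 11p15.4 and 0.850 in 11q12.1. Coverage was nearly equal in 1q44, at 1.82% in DTP + TSA and 1.91% in DTP, and in 7q35, at 3.30% in DTP + TSA and 3.62% in DTP.

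In DTP + TSA the arrays held 196 intervals, against 229 in DTP, with fewer in 8 arrays, an equal number in 7q35 and more in 9q33.2 and 17p13. The tiles with any interval numbered 220, or 19.1% (16.9 to 21.5), in DTP + TSA and 261 in DTP, and over all tiles of hg19 the share was 19.5% in DTP + TSA and 18.1% in DTP. By the limit of 20 points 56 tiles (4.87%) were lower in DTP + TSA, where 2.76% of all tiles were, and 21 (1.83%) were higher, where 3.51% of all tiles were. More tiles were lower than higher in the arrays, and more were higher than lower over all tiles. With equal numbers of intervals 2.35% of the tiles were lower, where 2.03% of all tiles were, and 1.04% higher, where 1.62% of all tiles were, so that lower tiles outnumbered higher ones over all tiles too. Under that setting 7 of 11 arrays were less covered in DTP + TSA than in DTP.

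The 4 tiles with the largest loss had no coverage in parental cells. They were chr9:125530001-125540000 in 9q33.2, at 0% in DTP + TSA and 64% in DTP, chr12:55980001-55990000 in 12q13.2, at 0% in DTP + TSA and 56% in DTP, and a pair in 11q12.1, chr11:59110001-59120000 at 0% in DTP + TSA and 54% in DTP, and chr11:59080001-59090000 at 8% in DTP + TSA and 60% in DTP. Another 4 tiles tied at a difference of -42 points, 1 in 14q11.2, 1 in 6p22.1 and 2 in 17p13. The 4 tiles with the largest gain included chr17:3280001-3290000 in 17p13, at 56% in DTP + TSA and 0% in DTP, and chr11:5950001-5960000 in 11p15.4, at 84% in DTP + TSA and 32% in DTP. A single interval of 8.6 kb, chr12:56086401-56095000 at the end of 12q13.2, gave the tile chr12:56090001-56100000, with 50% in DTP + TSA and 0% in DTP. The remaining one, chr11:58940001-58950000, was at 42% in DTP + TSA, 0% in DTP and 56% in parental cells. Another 4 tiles tied at 36 points, 1 in 12q13.2, 1 in 9q33.2 and 2 in 17p13.

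DTP intervals with no counterpart after TSA were shorter and of lower signal than those that had one. Of the 229 DTP intervals of the arrays 139, or 60.7% (54.0 to 67.1), overlapped a DTP + TSA interval, against 71.6% (71.2 to 72.0) of the DTP intervals elsewhere. In the 139 the median length was 2800 bp and the median Avg Val 10.9, and in the other 90 they were 1600 bp and 8.67. Among the 178 DTP intervals without a parental counterpart, 94 were present after TSA, which is 52.8% (45.2 to 60.3), against 64.1% (63.5 to 64.6) elsewhere. Of the 51 that were shared with parental cells 45, or 88.2% (76.1 to 95.6), were present, against 86.1% (85.6 to 86.6) elsewhere. Longer intervals overlap more easily, and the median DTP interval had 2200 bp in the arrays and 2400 bp elsewhere. The part of length in these shares was not tested. In the other direction 73.0% (66.2 to 79.0) of the 196 DTP + TSA intervals overlapped a DTP interval. The 5 strongest intervals of each of these libraries overlapped an interval of the other, and those of 17p13 led also in DTP + TSA, where chr17:3366401-3369600 had an Avg Val of 75.6 (rank 418 of its list) and chr17:3013801-3020200 had 60.1 (rank 717).

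**Figure D4:**
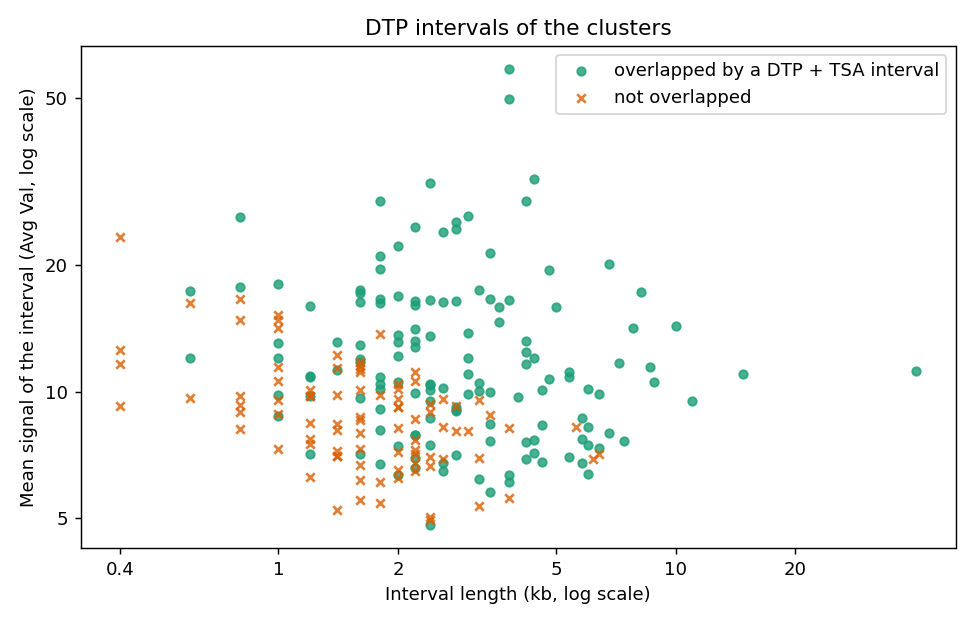
The 229 DTP intervals of the olfactory receptor clusters by length in kb and mean signal (Avg Val), both on log scales, with circles for the 139 that a DTP + TSA interval overlapped and crosses for the other 90. The crosses lie toward the short and weak end, with medians of 1600 bp and 8.67, against 2800 bp and 10.9 for the circles.

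DTP + TSA cells were also compared with parental cells. The arrays were more covered than in parental cells in the lists as deposited, with 4.54% in DTP + TSA and 2.32% in parental cells, a ratio of 1.96 where all of hg19 gave 1.43. With equal numbers of intervals the direction turned, as DTP + TSA stood at 2.03%, against 2.32% in parental cells, a ratio of 0.873 where hg19 gave 0.682. Without the arrays of chromosome 11 the ratio was 3.67. Coverage was higher in DTP + TSA in 10 of 11 arrays, and in 7 with equal numbers of intervals. In 17p13 it was 17.5% in DTP + TSA and 3.52% in parental cells, and in 9q33.2 it was 12.45% in DTP + TSA and 3.60% in parental cells. The array next to the centromere, 11q11-q12.1, was lower, at 4.60% in DTP + TSA and 5.25% in parental cells, and 11q12.1 was at 5.16% in DTP + TSA and 5.15% in parental cells. By the limit of 20 points 73 tiles (6.35%) were higher in DTP + TSA, where 7.29% of all tiles were, and 26 (2.26%) were lower, where 3.83% of all tiles were. The exact 95% interval of the share of higher tiles (5.01 to 7.92) held the share of all tiles. That interval takes tiles as independent, although an H3K9me3 interval can span neighbouring tiles, so it is no test against the genome. The share was 9.41% without the arrays of chromosome 11 and 5.00% without 17p13. Of the 71 parental intervals 50, or 70.4%, overlapped a DTP + TSA interval.

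Over the 3 libraries, 934.4 kb of the arrays was inside an interval of at least 1 library. Of this length 28.8% was marked in DTP alone, 27.3% in DTP and DTP + TSA but not in parental cells, 15.3% in DTP + TSA alone, 13.1% in parental cells alone and 11.6% in all 3. Over all of hg19 the same shares were 14.3%, 21.6%, 19.9%, 18.8% and 18.5%. The 269.2 kb marked in DTP alone was the largest class in the arrays, whereas over hg19 the largest was the length found in DTP and DTP + TSA.

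The surroundings of the arrays were then set beside them. In the 1 Mb on each side, 20.15 Mb in all, coverage was 7.05% in DTP + TSA, 6.26% in DTP and 4.29% in parental cells. DTP over parental was thus 1.46 in the flanks and 2.45 in the arrays, and DTP + TSA over DTP was 1.13 in the flanks and 0.801 in the arrays. The gain in DTP was larger than that of the flanks in 9 of 11 arrays, the exceptions being 11q11-q12.1 and 11q12.1. The flanks were more covered in DTP + TSA than in DTP at 7 of the 11 arrays. At 17p13 the flanks were at 10.4% in DTP + TSA, 3.84% in DTP and 1.83% in parental cells, so the array was more covered than its flanks in each library and differed from them in direction after TSA.

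Starting coverage differed between the arrays and the genome. The 1791 windows of 1 Mb with a mean coverage over the 3 libraries above 0% and under 5%, those of the arrays included, were covered to 3.07% in DTP + TSA, 3.33% in DTP and 1.76% in parental cells, which gives 1.89 for DTP over parental and 0.925 for DTP + TSA over DTP. The ratios of these sparsely marked windows lay on the same side of 1 as those of the arrays, and nearer to 1. Whether the arrays differ from other regions of equal starting coverage was not tested.

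A pair of arrays lie near chromosome ends. The 1q44 cluster, within the outer 2 Mb of its arm, was at 1.82% in DTP + TSA, 1.91% in DTP and 0.662% in parental cells, while its own flanks were at 18.3% in DTP + TSA, 16.7% in DTP and 16.3% in parental cells. The outer 2 Mb of chromosome arms were pooled outside the arrays, without chromosome Y and the acrocentric short arms. Coverage there was 24.2% in DTP + TSA, 13.8% in DTP and 8.85% in parental cells. The 17p13 cluster lies 2 to 5 Mb from its chromosome end. Over that zone of the same pooled arms, outside the arrays, coverage was 16.2% in DTP + TSA and 7.54% in DTP. This is a ratio of 2.15, against 0.894 in the 17p13 array and 0.819 in 11p15.4, which is only partly in that zone. The rest of the chromosome was more covered in DTP + TSA than in DTP on 7 of the 8 chromosomes that hold arrays, chromosome 6 being the exception.

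Single loci of other gene arrays had another profile. The clustered protocadherin locus (chr5, 0.8 Mb), whose genes encode neuronal adhesion proteins, was covered to 35.1% in DTP + TSA, 32.3% in DTP and 34.5% in parental cells. The zinc finger gene cluster of 19p12 (4.4 Mb) was covered to 54.9% in DTP + TSA, 55.6% in DTP and 90.2% in parental cells. The olfactory receptor arrays were thus less covered than either locus in every library. Their ratio of DTP over parental was higher, at 2.45, against 0.936 in the protocadherin locus and 0.616 in 19p12. With 90.2% already covered in parental cells, 19p12 had little room for a higher share in DTP, so the ratios are not on an equal footing. Other zinc finger clusters were not examined.

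**Figure D5:**
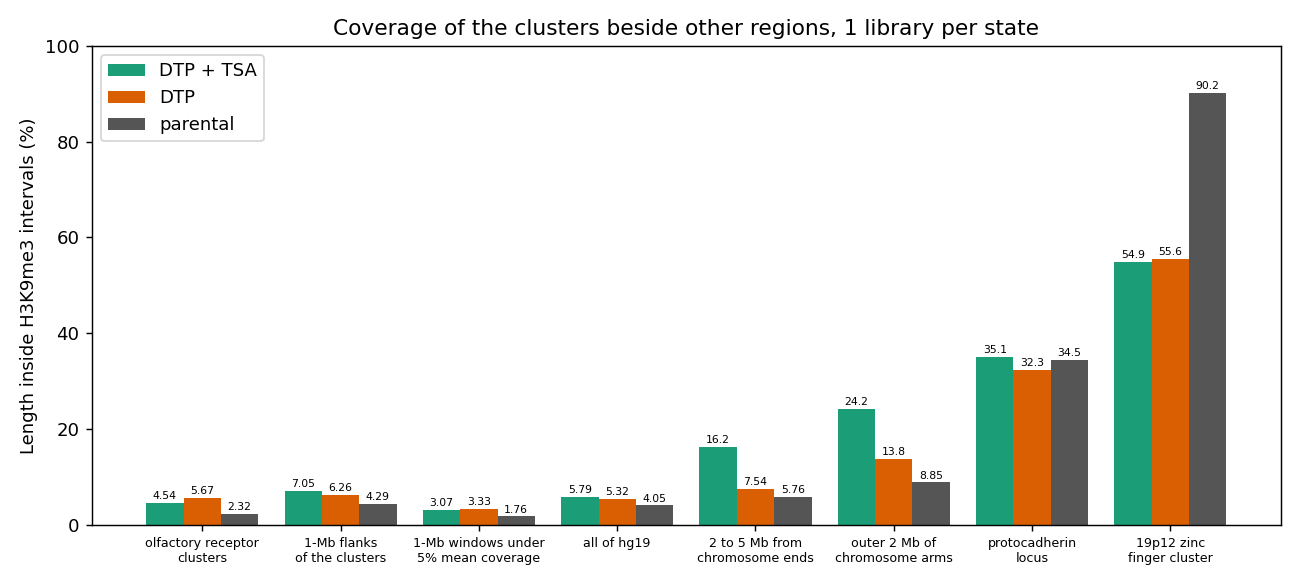
Percent of length inside H3K9me3 intervals in the olfactory receptor clusters and in 7 other kinds of region, for DTP + TSA, DTP and parental cells (bars from left to right in each group). The clusters are at 4.54% in DTP + TSA, 5.67% in DTP and 2.32% in parental cells, while the flanks and all of hg19 are highest in DTP + TSA.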

How the data were processed

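H3K9me3 ChIP-seq of 3 PC9 states was analysed from 1 list of enriched intervals per library. Tools listed per the submitters' processing notes are BWA and SICER, and builds listed there are dm3 and hg19, all with no version or role. Each list gives start, end, summit, a summit signal and a mean signal (Avg Val), per the file headers, and the deposited signal served only to rank or describe intervals within a library. The calling threshold, the input used and scaling are not stated in the labels or headers used here, and a deeper library can yield more intervals. Coverage was computed on the 200 bp grid of the lists, with tiles of 10 kb. Tiles and windows include assembly gaps. A tile was called at a difference of 20 points, and shares have exact (Clopper-Pearson) 95% intervals, which cover counting error only. Chromosome lengths came from GenomeInfoDb 1.38.1 and bands from circlize 0.4.16. Scripts ran in Python 3.11.15 with scipy 1.17.1, pandas 2.3.3, matplotlib 3.10.9 and numpy 2.4.6, and the code was tested on simulated data, where 6 of 6 checks gave the known answer.

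The arrays and settings were chosen with earlier results of these data known. Tiles and intervals were named by rank, the 5 with the largest difference in each direction or the 5 longest and strongest, of which some are given, and tiles tied at the last place are counted. Olfactory receptor genes were matched by symbol. Alternatives were differences of 10 and 50 points, equal numbers (23842) of the strongest intervals, intervals of at least 2 kb, intervals joined within 5 kb, tiles of 5 and 20 kb, removal of the chromosome 11 arrays and an overlap of 50%. Removal of 17p13, stretches within arrays, the low-coverage windows, the distances to chromosome ends and the promoters were chosen after seeing the data.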

Additional observations from a re-analysis of the deposited data

How the results depend on the processing

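Of 96 recomputed values 60 stayed within the exact 95% interval of the reported one (counts of arrays, within 1.5 times) and 36 did not. In parentheses is the share over all tiles of hg19. The results depended most on the number of intervals. Taking as many of the strongest from each list as the parental one holds, the arrays were covered to 2.03% in DTP + TSA, 2.66% in DTP and 2.32% in parental cells, so DTP + TSA turned lower than parental cells. 9 of 11 arrays were higher in DTP than in parental cells, 11q11-q12.1 (4.37% in DTP, 5.25% in parental cells) and 11q12.1 (3.43% in DTP, 5.15% in parental cells) turning lower, and 7 of 11 were lower in DTP + TSA than in DTP. Tiles with any interval were 8.96% (9.56%) in DTP + TSA and 10.9% (9.73%) in DTP. Tiles higher in DTP than in parental cells were 3.04% (2.85%), tiles lower in DTP + TSA than in DTP 2.35% (2.03%) and higher ones 1.04% (1.62%), and tiles higher in DTP + TSA than in parental cells 2.43% (2.71%). Of DTP intervals 32.7% overlapped parental ones. The cause was not tested.

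With intervals of at least 2 kb, tiles with any interval were 13.1% in DTP + TSA and 15.0% in DTP, and 10 of 11 arrays were higher in DTP than in parental cells. At a limit of 10 points, 15.2% (10.9%) of tiles were higher and 3.48% (5.36%) lower in DTP than in parental cells, 4.78% (6.57%) higher and 9.13% (5.95%) lower in DTP + TSA than in DTP, and 12.4% (11.98%) higher and 3.39% (5.47%) lower in DTP + TSA than in parental cells, where the higher share passed that of all tiles. At 50 points these were 2.09% (1.26%) and 0.522% (1.07%), 0.261% (0.787%) and 0.348% (0.238%), and 1.04% (1.70%) and 0.522% (1.11%). Tiles higher in DTP + TSA than in DTP were 2.96% (3.97%) with joining within 5 kb, 2.83% (3.90%) in tiles of 5 kb and 0.870% (2.58%) in tiles of 20 kb. Tiles of 20 kb also gave 2.09% (1.38%) lower there, 6.43% (4.96%) higher in DTP than in parental cells and 4.70% (5.55%) higher in DTP + TSA than in parental cells. Without the chromosome 11 arrays, tiles with any interval were 21.6% (19.5%) in DTP + TSA and 5.88% (10.5%) in parental cells, 11.8% (6.67%) were higher and 1.18% (3.72%) lower in DTP than in parental cells, 3.14% (3.51%) higher in DTP + TSA than in DTP, and 9.41% (7.29%) higher and 0.980% (3.83%) lower in DTP + TSA than in parental cells. Without 17p13, chosen after seeing the data, 5.00% (7.29%) were higher in DTP + TSA than in parental cells. No paired analysis was possible because each state has 1 library. Depth is unknown, so whether a missing interval is unmarked or below detection was not tested.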
